A study of Homo sapiens with 40 samples.

Results

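The 10 genes described here encode heat shock proteins of the cytosol and the mitochondrion: HSPA1A, HSPA1B, HSPA8, HSPH1, DNAJA1, DNAJB1, HSP90AA1, HSPD1, HSPE1 and HSPB1. They were taken by gene symbol as a named family, with earlier results of these data known, from the 62754 genes that each of 3 tables of raw read counts lists. The study asked what loss of QKI (quaking), an RNA-binding protein, does in T-ALL, the acute lymphoblastic leukaemia of the T-cell lineage, and the tables hold 40 RNA sequencing libraries of human cell lines in 10 groups of 4. Jurkat, a T-ALL line, was electroporated with an siRNA against QKI or with a non-targeting control (NTC) siRNA. Cells that the labels call HPB-ALL, a second such line, were infected by centrifugation with virus carrying an shRNA against QKI or an NTC shRNA. A further 6 groups were untreated lines labelled as T lymphocytes: ALL-SIL, DND-41, HPB-ALL, KARPAS-45, LOUCY and TALL-1. KARPAS-45 and HPB-ALL grew in 20% serum, all other lines in 10%, and no label names a heat shock or another stress. The Jurkat RNA is labelled as total RNA and all other RNA as polyadenylated. Levels are given as CPM, counts per 1000000 after TMM scaling, which sets a library's total by the bulk of its genes, within each table.

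Heat shock proteins are molecular chaperones, which bind other proteins while these fold, are transported or are damaged. HSP70 proteins hold unfolded stretches of a client in a cycle driven by ATP, J-domain proteins bring clients to HSP70, and exchange factors release the bound ADP. HSP90 acts later on kinases and steroid receptors, HSP60 with its lid HSP10 forms a folding chamber in mitochondria, and small heat shock proteins hold damaged proteins in a soluble state. In heat, or when unfolded proteins gather, heat shock factor HSF1 forms trimers and binds the heat shock element, an array of inverted GAA blocks, in the promoters of many of these genes. Leukaemia cells often hold large amounts of several of these proteins.

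Matches to inverted blocks of the heat shock element are shown for 8 of the 10 genes. Promoters were RefSeq windows of 250 bases before to 50 bases after each annotated start on GRCh38.p14, and 14 windows were found for the 10 genes. The letters searched were GAANNTTC or TTCNNGAA, a pair of inverted blocks, and GAANNTTCNNGAA or TTCNNGAANNTTC, a run of one block more. Each of the first 2 motifs reads the same on both strands, the last 2 are reverse complements of each other, and every longer run contains the shorter ones. The pair of blocks lay in 9 of the 14 windows, of 8 genes, against 13.5% of all 35116 promoter windows. The longer run lay in 4 of the 14 windows, of HSPA8, DNAJA1, HSP90AA1 and HSPD1, against 0.490% of all windows. For HSPA1A, HSPA1B, DNAJB1 and HSPB1 only the pair of blocks was found. The windows of HSPH1 and HSPE1 held neither. A match says only that the letters are there, and HSF1 binding was not measured. The longer run of DNAJA1 is not shown. Each stretch is printed 5′ to 3′ in the direction of its gene, with the matching blocks in capitals.
HSPA1A, chr6:31815417-31815464, + strand: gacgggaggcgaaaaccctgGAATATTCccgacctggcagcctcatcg
HSPA1B, chr6:31827613-31827660, + strand: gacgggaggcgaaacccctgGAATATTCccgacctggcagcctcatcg
HSPA8, chr11:123062346-123062374, - strand: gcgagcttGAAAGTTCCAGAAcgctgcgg
HSPA8, chr11:123062171-123062199, - strand: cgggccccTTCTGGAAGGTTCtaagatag
DNAJA1, chr9:33025064-33025093, + strand: aaagggctccaGAAGATTCcacgagcgccg
DNAJB1, chr19:14518417-14518494, - strand: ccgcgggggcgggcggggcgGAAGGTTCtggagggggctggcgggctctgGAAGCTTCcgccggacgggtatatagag
HSP90AA1, chr14:102087104-102087133, - strand: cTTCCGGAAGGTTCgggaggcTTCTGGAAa
HSPD1, chr2:197500062-197500090, - strand: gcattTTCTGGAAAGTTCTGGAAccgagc
HSPB1, chr7:76302471-76302518, + strand: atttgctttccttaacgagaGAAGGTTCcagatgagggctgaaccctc

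The blocks of HSPA1A and HSPA1B lay 106 to 99 and 105 to 98 bases before their starts, and the 300-base windows of this pair of genes were 92.3% identical. HSPA8 held one run at 230 to 218 bases and another at 55 to 43 bases before its start. HSPD1 and HSPE1 are transcribed away from each other, and the HSPE1 start lies 105 and 539 bases from the 2 annotated HSPD1 starts. The HSPD1 run lies outside the window of HSPE1.

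The summed gene counts were 68.4 to 134.2 M (M, 1000000 counts) in the Jurkat libraries, 81.0 to 134.9 M in the knockdown libraries labelled HPB-ALL and 44.1 to 84.0 M in the untreated lines. QKI itself had 24.9, 17.4, 18.2 and 25.3 CPM with the QKI siRNA and 148, 176, 137 and 133 CPM with the NTC siRNA in Jurkat, and the log2 fold change was -2.79. It had 54.5, 54.9, 55.9 and 57.7 CPM with the QKI shRNA and 104.5, 103, 101 and 107 CPM with the NTC shRNA in the libraries labelled HPB-ALL, where the log2 fold change was -0.90. Neither pair of groups overlapped. Of 12 T-cell markers, including the CD3 chains, 0 averaged over 1 CPM in either group labelled HPB-ALL of the knockdown, against 11 in untreated HPB-ALL. Their summed level was 1.22 to 1.40 CPM with the QKI shRNA, 1.30 to 1.49 CPM with the NTC shRNA and 6101 to 8832 CPM in untreated HPB-ALL. Of 12 myeloid markers, such as ELANE and LYZ, 7 with the QKI shRNA and 8 with the NTC shRNA averaged over 1 CPM, with summed levels of 2980 to 3112 CPM and 3415 to 3575 CPM, against 1 marker and 15.1 to 34.7 CPM in untreated HPB-ALL. Each of the 12 T-cell markers had at least 1 count somewhere in these 8 libraries, while MPO, CD14, CD68 and S100A8 of the myeloid list were at or under 1 CPM there. These libraries are named by their label throughout. In Jurkat all 12 T-cell markers averaged over 1 CPM in both groups. Nothing says that the libraries of an untreated line came from separate cultures, so p-values among the lines measure the spread between libraries, which may be technical.

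In the libraries labelled HPB-ALL, DNAJA1, HSPA1B, HSPA1A, HSP90AA1 and HSPB1 fell with the QKI shRNA, each with all 4 QKI shRNA libraries below all 4 NTC libraries. Mean CPM fell by 8.93% for HSPB1, the smallest fall, and fell by 26.6% for HSPA1B, the largest. HSPA8, HSPH1, DNAJB1, HSPD1 and HSPE1 did not pass the test. The count of 5 became 3 without NTC library 4 or without QKI shRNA library 1, and 8 with upper quartile factors in place of TMM. Of the 17974 genes tested, 23.2% passed in either direction and 10.4% passed as lower, at an adjusted p under 0.05 from edgeR's quasi-likelihood test, and 11.7% lay below the controls in all 4 libraries. All 10 members had a negative log2 fold change, as had 51.3% of all genes, and the median was -0.15 over the members and -0.0055 over all genes. The summed myeloid markers were also lower, at 2980 to 3112 CPM with the QKI shRNA and 3415 to 3575 CPM with the NTC shRNA, and their part in these falls was not tested. Fewer cells that transcribe a gene and less of its RNA in each cell cannot be told apart in such bulk libraries.

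**Figure D1:**
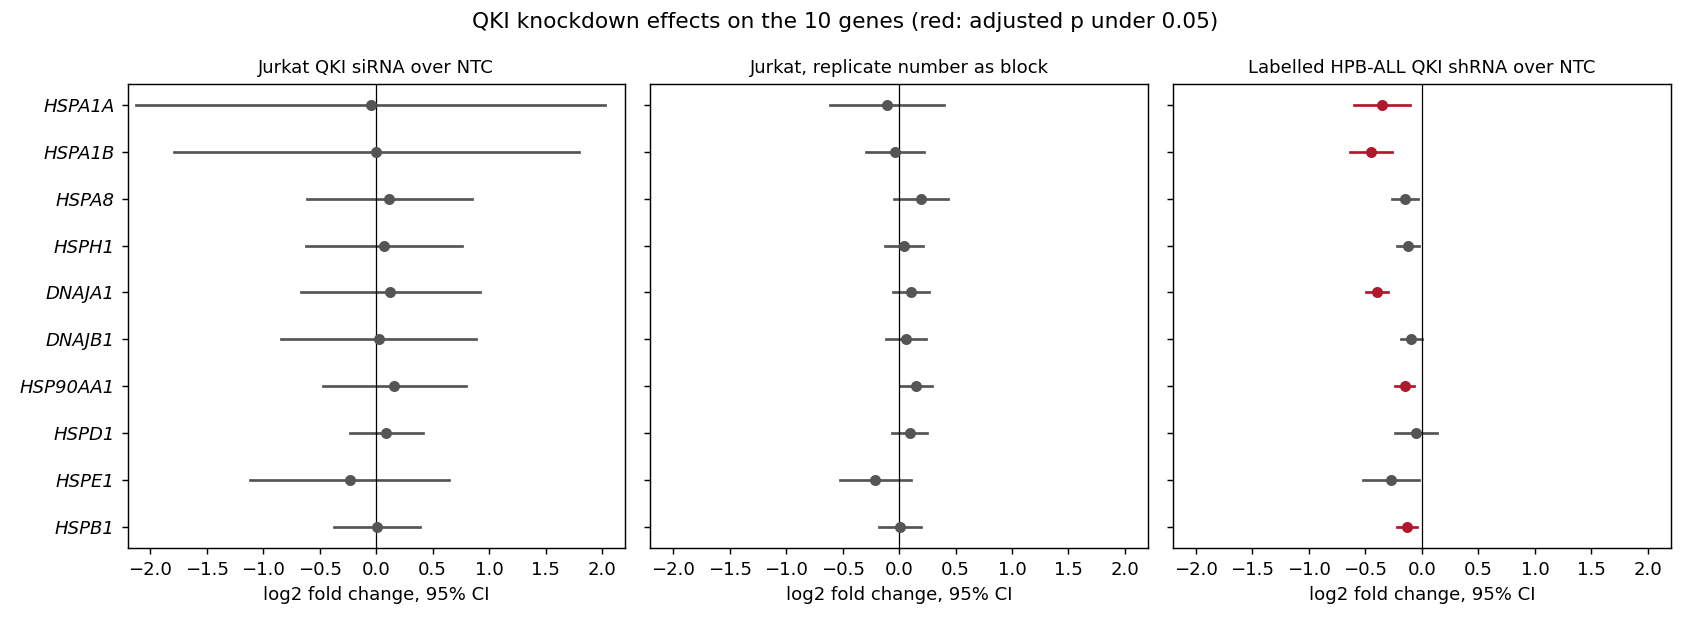
Log2 fold change (QKI knockdown over NTC) of the 10 genes on the horizontal axes, with points for the estimate and lines for its 95% confidence interval, in Jurkat, in Jurkat with the replicate number as a block, and in the libraries labelled HPB-ALL. Red marks an adjusted p under 0.05, which 5 genes reached in the libraries labelled HPB-ALL and 0 in Jurkat, where the HSPA1A interval spans -2.12 to 2.03 without the block and -0.61 to 0.40 with it.

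DNAJA1, a J-domain partner of HSP70 (ENSG00000086061.16, chromosome 9, 33025211 to 33039907 on the + strand of GRCh38, GENCODE 29), had 62.8, 63.7, 59.1 and 64.1 CPM in the QKI shRNA libraries and 80.1, 80.1, 79.8 and 88.6 CPM in the NTC libraries. The QKI shRNA libraries lay closer to each other than to any control. The log2 fold change was -0.40 (SE 0.04, adjusted p = 0.0001 by edgeR). DNAJA1 had the smallest p of the 10 members, and it was called, like HSPA1B, under all 16 alternative settings and replicate omissions. DNAJB1, the J-domain protein most strongly tied to the stress response (ENSG00000132002.9, chromosome 19, 14514770 to 14529770, - strand), had 79.3 to 87.1 CPM with the QKI shRNA and 85.9 to 94.3 CPM with the NTC shRNA, and its groups overlapped. Its log2 fold change was -0.10 (SE 0.04, adjusted p = 0.125 by edgeR).

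HSPA1A and HSPA1B encode the stress-inducible HSP70 and are near-copies of each other in the major histocompatibility region of chromosome 6 (ENSG00000204389.10, 31815464 to 31817946, and ENSG00000204388.7, 31827735 to 31830255, both on the + strand). Of all 50-base windows of the HSPA1A transcript, 72.6% also occur in another gene, all of them in HSPA1B, so the authors' counting could split or drop their reads. A non-coding gene, AL671762.1, also covers 36.5% of the HSPA1B exon on the same strand. HSPA1B had 7.24, 7.69, 7.91 and 6.0 CPM with the QKI shRNA and 10.9, 9.56, 9.08 and 9.77 CPM with the NTC shRNA, a log2 fold change of -0.45 with SE 0.09 (adjusted p = 0.00307 by edgeR). HSPA1A had 2.88, 2.92, 2.93 and 1.97 CPM with the QKI shRNA and 3.36, 3.58, 3.19 and 3.55 CPM with the NTC shRNA. Its groups did not overlap, with QKI shRNA library 4 well below the other 3, and its log2 fold change was -0.36 (SE 0.11, adjusted p = 0.0415 by edgeR), or -0.23 and still called without that library. Summed, the pair had a log2 fold change of -0.42 with SE 0.09 (adjusted p = 0.00461 by edgeR). The sum removes the question of how reads were split between the copies, but restores no reads that may have been dropped.

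HSPA8, the HSP70 that is made without stress (ENSG00000109971.14, chromosome 11, 123057489 to 123063230, - strand), had 811, 856, 813 and 840 CPM with the QKI shRNA and 825, 948, 941 and 971 CPM with the NTC shRNA. NTC library 1 lay among the QKI shRNA libraries, and the log2 fold change of -0.15 did not pass (SE 0.05, adjusted p = 0.0591 by edgeR). HSPH1, a large relative of HSP70 that acts as its exchange factor (ENSG00000120694.20, chromosome 13, 31134974 to 31162388, - strand), had 92.1 to 105 CPM with the QKI shRNA and 103 to 112 CPM with the NTC shRNA, with some overlap. Its log2 fold change was -0.13 (SE 0.05, adjusted p = 0.0639 by edgeR).

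HSP90AA1, the stress-inducible cytosolic HSP90 (ENSG00000080824.19, chromosome 14, 102080738 to 102139699, - strand), had 632, 616, 631 and 601 CPM with the QKI shRNA and 686, 690, 664 and 718 CPM with the NTC shRNA. It lost the most CPM of the 5 genes that fell, 69.5 on average, for a log2 fold change of -0.15 with SE 0.04 (adjusted p = 0.0166 by edgeR). HSPB1, the small heat shock protein also called HSP27 (ENSG00000106211.10, chromosome 7, 76302544 to 76304295, + strand), had 140, 138, 145 and 140 CPM with the QKI shRNA and 161, 151, 146 and 160 CPM with the NTC shRNA. The highest QKI shRNA library lay just under the lowest control, and the log2 fold change was -0.13 (SE 0.04, adjusted p = 0.0291 by edgeR). HSPB1 was called under 9 of the 16 alternative settings and replicate omissions and HSPA1A under 10 of 15, and leaving out NTC library 1 or 4 or QKI shRNA library 1 ended the call of either. HSPB1 also lost its call without QKI shRNA library 2 or 4, and HSPA1A without NTC library 2.

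HSPD1 and HSPE1, the mitochondrial pair, were not called. HSPD1, which encodes HSP60 (ENSG00000144381.18, chromosome 2, 197486581 to 197516737, - strand), had 936, 1059, 962 and 811 CPM with the QKI shRNA and 875, 1051, 908 and 1081 CPM with the NTC shRNA. The groups lay over each other, with a log2 fold change of -0.06 and a 95% confidence interval of -0.24 to 0.13 (adjusted p = 0.686 by edgeR). HSPE1, which encodes its partner HSP10 (ENSG00000115541.11, chromosome 2, 197499994 to 197503457, + strand), had only 1.29 to 1.78 CPM with the QKI shRNA and 1.73 to 2.19 CPM with the NTC shRNA. Its groups overlapped and it did not pass (log2 fold change -0.27, SE 0.11, adjusted p = 0.103 by edgeR).

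In Jurkat, 0 of the 10 members passed with the QKI siRNA, while 0.0047% of the 21296 genes tested passed, which is QKI alone. At an unadjusted p under 0.05 there were 0 members too, and 186 genes in all. DESeq2 called 2 genes and limma-voom 1, and neither called a member. With both libraries numbered 2 left out, a choice made after their low values were seen, 0 members passed as well, with or without the block for replicate numbers. The log2 fold changes of the members ran from -0.23 for HSPE1 to 0.16 for HSP90AA1. Of the 10, 8 were positive and 2 negative, against 49.85% of all genes that were negative. With the block 7 were positive. Without the libraries numbered 2 it was 6, or 5 with the block. HSPA1B, which fell most in the libraries labelled HPB-ALL, had a Jurkat log2 fold change of 0.0009 with a 95% confidence interval of -1.79 to 1.79, so a change of the size seen there was not detectable without regard to the pairing of libraries.

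The wide interval of HSPA1B goes with a difference between replicate numbers. HSPA1B had 31.1, 1.57, 21.9 and 14.7 CPM in QKI siRNA libraries 1 to 4 and 27.4, 1.57, 19.0 and 21.4 CPM in NTC siRNA libraries 1 to 4. HSPA1A had 2.07, 0.044, 1.67 and 0.81 CPM with the QKI siRNA and 2.19, 0.052, 1.34 and 1.18 CPM with the NTC siRNA, and its low values rest on 3 and 6 counts. Both libraries numbered 2 stood far below the other 6 for both genes. The same held for HSPA8, HSPH1, DNAJA1, DNAJB1, HSP90AA1 and HSPE1, so that 8 of the 10 members were lower in both libraries numbered 2 than in every other Jurkat library, against 14.3% of all genes tested that were lower there and 13.3% that were higher. This split by number was noticed in these values and is given with no test. The mean of the other 6 libraries was 32.1 times that of the number 2 libraries for HSPA1A, 14.4 times for HSPA1B, and 2.00 to 2.87 times for the other 6 genes. HSPD1 and HSPB1 overlapped, at ratios of 1.14 and 1.24.

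**Figure D2:**
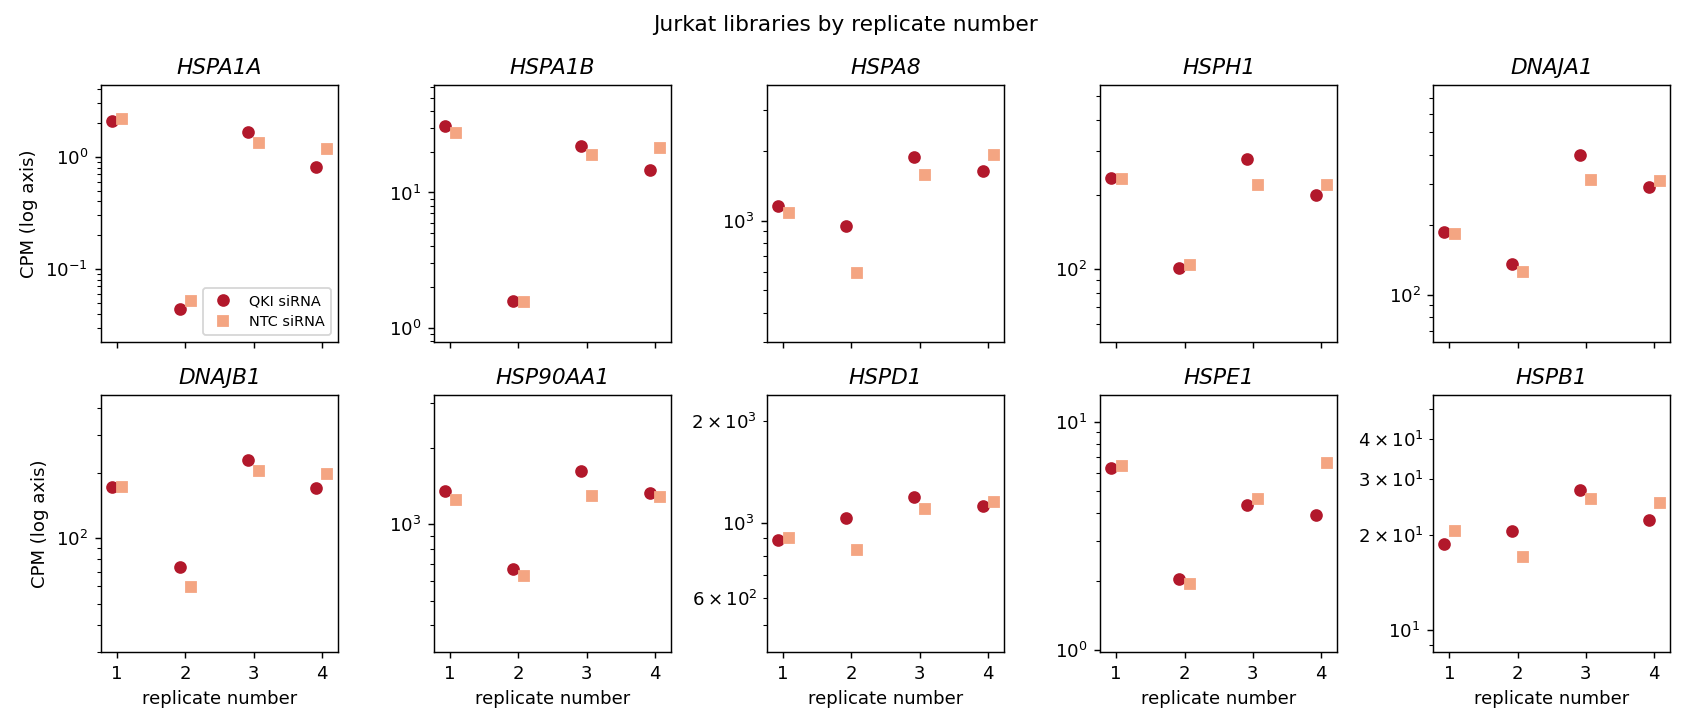
CPM (log axes) of each of the 10 genes in the 8 Jurkat libraries, by replicate number, with circles for the QKI siRNA and squares for the NTC siRNA. Both symbols at number 2 lie below all other points for 8 genes, all but HSPD1 and HSPB1.

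DNAJB1 was lowest at number 2 and highest at number 3 with the QKI siRNA as with the NTC siRNA. It had 172, 73.6, 229 and 170 CPM with the QKI siRNA and 173, 59.7, 205 and 197 CPM with the NTC siRNA. Over the 8 Jurkat libraries the 45 pairs of members had a median correlation of 0.84 in log2(CPM + 0.5), from 0.20 to 0.99, a description of libraries that share treatment and number. Histone genes took 5.72% and 4.26% of the counts in the QKI and NTC siRNA libraries numbered 2, against 1.76% to 3.02% in the other 6, and the part of this in the lower levels was not tested.

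Same-numbered Jurkat libraries deviated together over all genes, at correlations of 0.733 to 0.877, so a fit with a block for each replicate number stands beside the plain one. It narrowed the interval of HSPA1B to -0.29 to 0.22 around a log2 fold change of -0.04, and that of DNAJA1 to -0.06 to 0.27 around 0.11. With the block 9 genes passed, 0.0423% of those tested, and again 0 members. HSP90AA1 was the 1 member with an unadjusted p under 0.05 in that fit. It had 1354, 668, 1621 and 1325 CPM with the QKI siRNA and 1249, 626, 1293 and 1277 CPM with the NTC siRNA, higher with the QKI siRNA in 4 of 4 pairs. Without the libraries numbered 2 its log2 fold change in the block fit was 0.17 (adjusted p = 0.714 by edgeR). With all 4 pairs it was 0.15 (SE 0.06, adjusted p = 0.741 by edgeR), with a sign opposite to that of the fall in the libraries labelled HPB-ALL.

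The difference between the knockdown effects was tested over the 16 libraries. It was called for 0 of the 10 members without the block, where 0.0254% of 15730 genes passed. Of the members 0 had an unadjusted p under 0.05 there, and DESeq2 called 0 too. For DNAJA1 the effect in the libraries labelled HPB-ALL minus that in Jurkat was -0.54 on the log2 scale (SE 0.39, adjusted p = 0.947 by edgeR), and -0.72 to -0.22 with 1 library left out, the smallest without Jurkat QKI siRNA library 3. With the replicate block the DNAJA1 difference was -0.52 and passed (adjusted p = 0.012 by edgeR), as the 1 member called where 3.06% of all genes passed. Leaving out any 1 Jurkat pair from that fit gave -0.56 to -0.43, each called. With the block in Jurkat alone, an alternative added after seeing the data, 7.71% of all genes and 2 members, DNAJA1 and HSP90AA1, passed. It is a comparison of different cells, RNA types and ways of delivery as well as of 2 knockdowns, and these cannot be told apart. The numbers do not pair the libraries labelled HPB-ALL, where same-number correlations were -0.21 to 0.036.

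**Figure D3:**
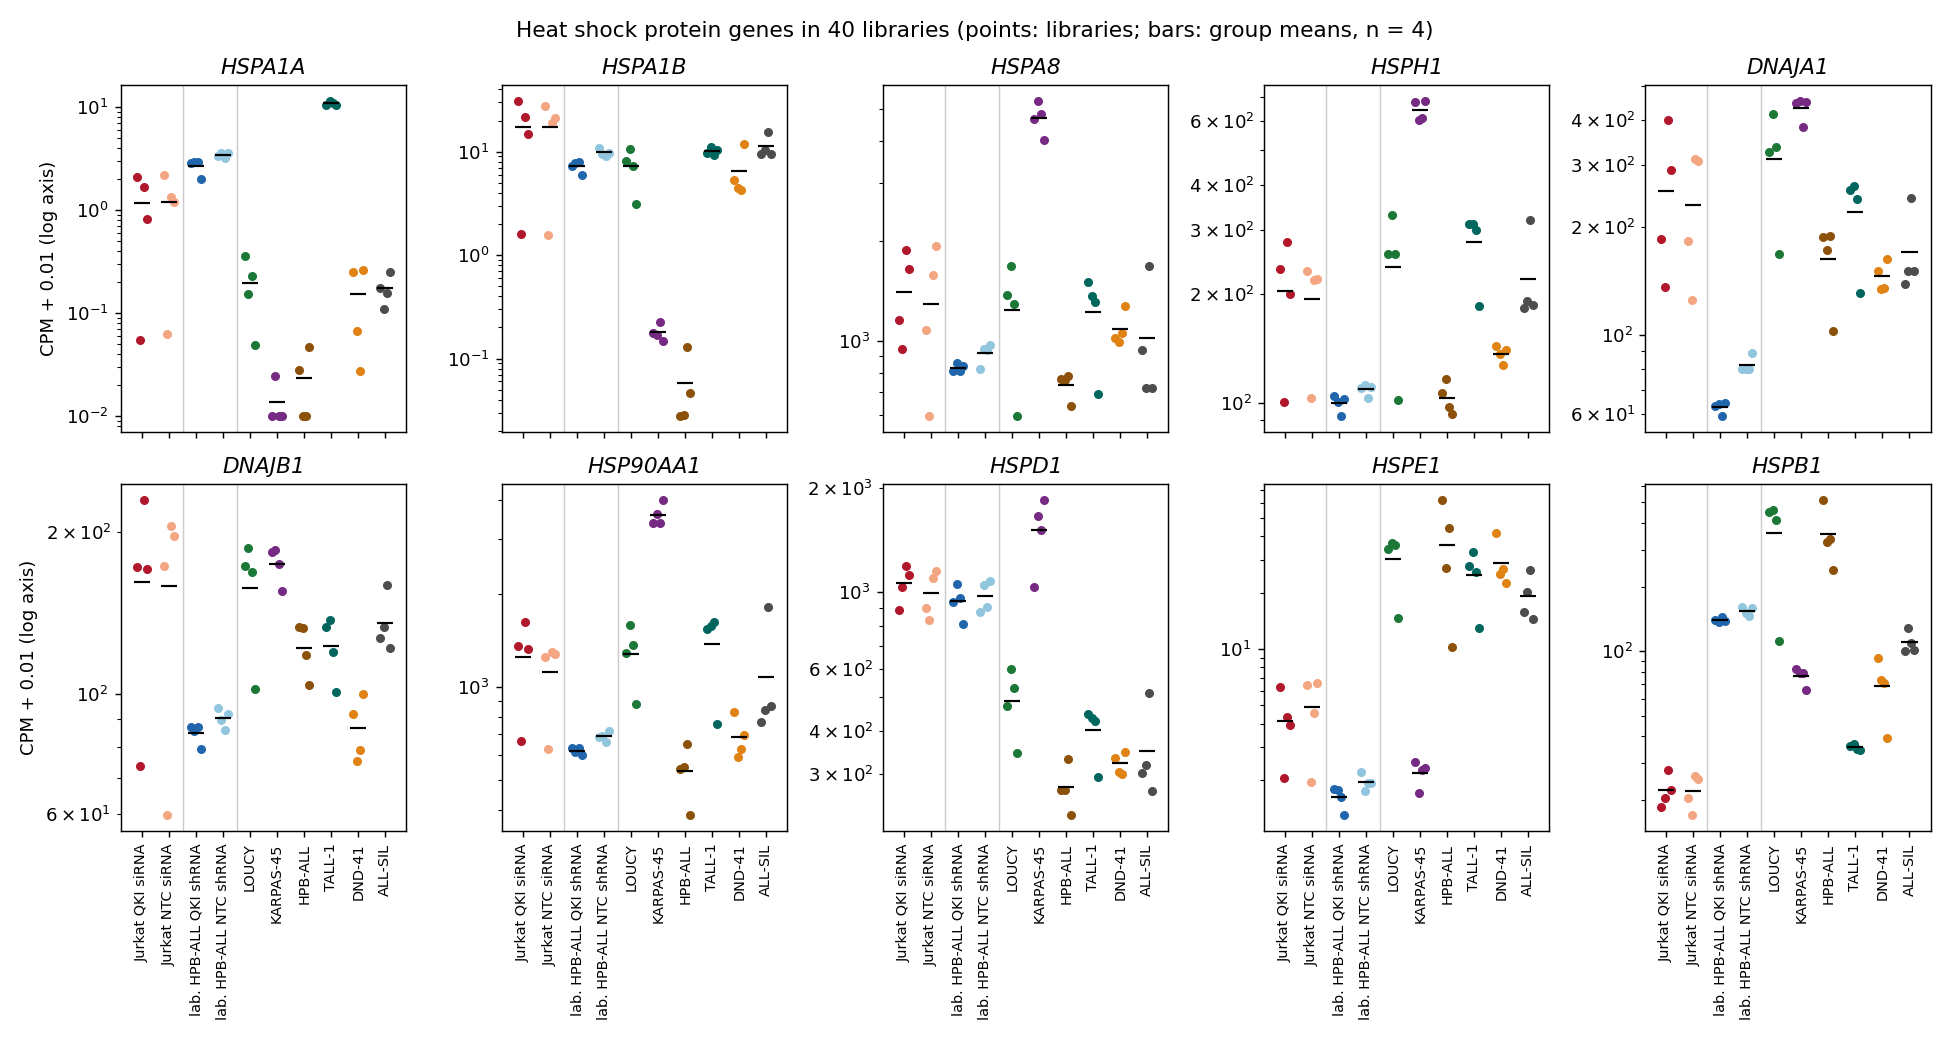
CPM + 0.01 (log axes) of the 10 genes in 40 libraries, in Jurkat, in the knockdown libraries labelled HPB-ALL and in the 6 untreated lines, with a point for each library and a bar for each group mean (n = 4). KARPAS-45 has the highest mean of the 6 lines for 6 genes, among them HSPA8 at 4696 CPM. Its HSPA1A and HSPE1 means are the lowest, that of HSPA1A not called apart from HPB-ALL. Grey lines separate tables that were scaled apart.

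Among the 6 untreated lines all 10 members differed, as did 98% of the 20348 genes tested. Of 150 contrasts between a pair of lines for a member, 94 were called, and 89 to 103 with any 1 library left out, against 65.2% of all contrasts over all genes. The members thus differed between lines about as often as other genes. KARPAS-45 had the highest mean for 6 members, HSPA8, HSPH1, DNAJA1, DNAJB1, HSP90AA1 and HSPD1, against 24.8% of all genes. The 10 genes together took 0.892% to 0.992% of the counts in KARPAS-45 and 0.209% to 0.514% in the other lines. KARPAS-45 had the lowest mean of HSPE1, the second lowest of HSPA1B and, on 1 count, the lowest of HSPA1A. It was not called apart from HPB-ALL, with 3 counts, for HSPA1A (adjusted p = 0.381 by edgeR). Its libraries were also the deepest of the lines, at 75.6 to 84.0 M counts against 44.1 to 64.8 M, and mitochondrially encoded genes took 0.671% to 1.43% of its counts against 3.78% to 9.49% in the other lines. The part of depth, of this share and of serum in its levels was not tested. Per kb of the longest coding transcript, KARPAS-45 levels averaged 1907 CPM for HSPA8, 1026 for HSP90AA1, 615 for HSPD1, 182 for DNAJA1, 124 for HSPH1, 84.4 for HSPB1, 77.1 for DNAJB1, 2.30 for HSPE1, 0.0672 for HSPA1B and 0.0014 for HSPA1A.

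HSPA8 had 4645, 5292, 4814 and 4033 CPM in KARPAS-45, and the highest library of any other line had 1686 CPM. The mean of 4696 ± 520 CPM in KARPAS-45 was 6.36 times the 738 ± 68.5 CPM of HPB-ALL, the lowest line (SD, n = 4 each). KARPAS-45 was above LOUCY, the next line, by 1.92 on the log2 scale (SE 0.28, adjusted p = 1.06e-06 by edgeR), and no neighbours further down the order, from LOUCY to HPB-ALL, were called apart. LOUCY and HPB-ALL themselves were (adjusted p = 0.0181 by edgeR). HSP90AA1 had 3381, 3623, 3381 and 4020 CPM in KARPAS-45 and 541, 549, 653 and 384 CPM in HPB-ALL, with no overlap. KARPAS-45 was above TALL-1, the next line, by 1.40 on the log2 scale (SE 0.26, adjusted p = 2.87e-05 by edgeR).

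HSPH1 had 603 to 683 CPM in KARPAS-45, 102 to 331 CPM in LOUCY, 185.5 to 312.5 CPM in TALL-1, 183 to 319 CPM in ALL-SIL, 128 to 144 CPM in DND-41 and 93.1 to 116 CPM in HPB-ALL. KARPAS-45 stood apart from TALL-1 (adjusted p = 6.39e-05 by edgeR) and ALL-SIL from DND-41 (adjusted p = 0.0169 by edgeR), while the other neighbours were not called. HSPD1 ranged from 1036 to 1845 CPM in KARPAS-45 and from 228.5 to 600.4 CPM in the other 5 lines, whose neighbours were not called apart. Lines further apart in that order were, such as LOUCY and HPB-ALL (adjusted p = 0.000877 by edgeR). For the J-domain genes the order was flatter. DNAJA1 averaged 433 ± 34.3 CPM in KARPAS-45 and 146 ± 13.8 CPM in DND-41, a ratio of 2.97, and DNAJB1 averaged 175 ± 13.9 and 86.5 ± 11.6 CPM in the same lines, a ratio of 2.02 (SD, n = 4 each). No DNAJA1 neighbours were called apart, and of those of DNAJB1 only HPB-ALL and DND-41 were (adjusted p = 0.00698 by edgeR). Over all 15 pairs of lines, though, 8 were called for DNAJA1 and 10 for DNAJB1.

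The inducible HSP70 pair followed another order. HSPA1A had 10.3, 11.5, 10.99 and 10.5 CPM in TALL-1 and at most 0.343 CPM in any library of the other 5 lines. Its counts summed over 4 libraries were 2476 in TALL-1, 40 in LOUCY, 33 in ALL-SIL, 29 in DND-41, 3 in HPB-ALL and 1 in KARPAS-45. The ratio of pooled CPM was 775 between TALL-1 and HPB-ALL (95% exact interval 265 to 3761) and 2925 between TALL-1 and KARPAS-45 (525 to 1.156e+05), intervals that cover counting error only. HSPA1B was not set apart in TALL-1 in this way. It averaged 11.3 ± 2.87 CPM in ALL-SIL, 10.1 ± 0.806 in TALL-1, 7.22 ± 3.10 in LOUCY and 6.44 ± 3.58 in DND-41, no neighbours of which were called apart (SD, n = 4 each). ALL-SIL and DND-41, the ends of this order, were (adjusted p = 0.0333 by edgeR). KARPAS-45 had 9 to 15 counts of HSPA1B per library and HPB-ALL 1 to 6, and the pooled CPM of ALL-SIL was 66.8 times that of KARPAS-45 (49.95 to 91.6) and 244 times that of HPB-ALL (133 to 510).

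HSPA1A counts over HSPA1B counts were 1.02 to 1.18 in TALL-1 and 0.0040 to 0.046 in LOUCY, DND-41 and ALL-SIL. They were 0.33 to 0.40 with the QKI shRNA and 0.31 to 0.37 with the NTC shRNA in the libraries labelled HPB-ALL, and 0.028 to 0.076 with the QKI siRNA and 0.033 to 0.080 with the NTC siRNA in Jurkat. In the table labelled HPB-ALL the row for reads that map to several places held 0% of the totals. The sources used here do not say whether reads that match both copies were dropped or counted. The part of this in these ratios was not tested.

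HSPE1 ran against the 6 members that were highest in KARPAS-45. It had 2.48, 1.70, 2.26 and 2.30 CPM there, against a lowest library of 10.2 CPM in any other line. HPB-ALL held 62.4, 27.2, 44.2 and 10.2 CPM, a mean 16.5 times that of KARPAS-45, and ALL-SIL, the line nearest to KARPAS-45, was above it by 3.13 on the log2 scale (SE 0.41, adjusted p = 2.35e-07 by edgeR). The other 5 lines were not called apart from their neighbours, but HPB-ALL and ALL-SIL, the ends of their order, were (adjusted p = 0.0374 by edgeR). HSPD1 and HSPE1 act together in 1 chamber. Over the 24 libraries their log2(CPM + 0.5) values had a correlation of -0.75. That describes libraries which share a line in groups of 4. KARPAS-45, highest in HSPD1 and lowest in HSPE1, lay apart from the other 5 lines in both. Within LOUCY, HPB-ALL, TALL-1 and ALL-SIL, library 4 was the lowest for both genes, but not within DND-41 or KARPAS-45. The correlation was 0.20 over the 8 Jurkat libraries and 0.31 over the 8 knockdown libraries labelled HPB-ALL.

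**Figure D4:**
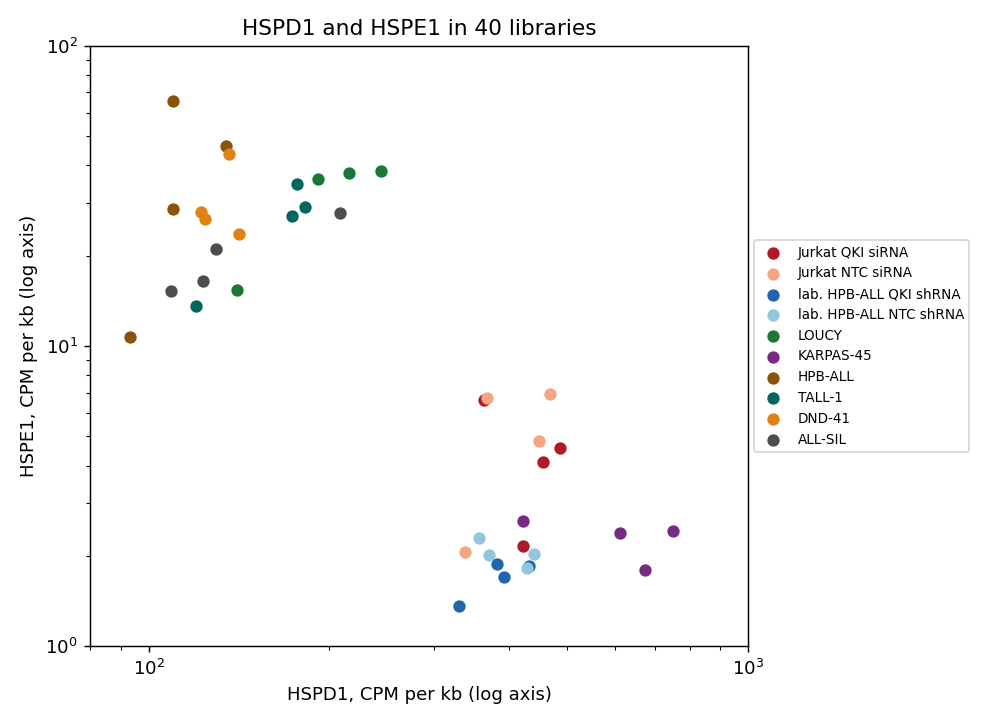
HSPE1 against HSPD1 in CPM per kb of the longest coding transcript (log axes), with a point for each of 40 libraries coloured by group. The 4 KARPAS-45 libraries, the Jurkat libraries and the knockdown libraries labelled HPB-ALL lie at high HSPD1 and low HSPE1, with HSPD1 at 54.7 to 376 times HSPE1, and the other 5 untreated lines at 1.67 to 9.15 times.

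Per kb of the longest coding transcript, the level of HSPD1 was 162 to 376 times that of HSPE1 in KARPAS-45 and 1.67 to 9.15 times in the other 5 untreated lines. The ratio was 203 to 243 with the QKI shRNA and 155 to 235 with the NTC shRNA in the libraries labelled HPB-ALL. In Jurkat it was 55.0 to 196 with the QKI siRNA and 54.7 to 165 with the NTC siRNA. The libraries of KARPAS-45, of Jurkat and labelled HPB-ALL were also deeper, at 68.4 to 134.9 M counts against 44.1 to 64.8 M in the other 5 lines. Mitochondrially encoded genes took 0.565% to 1.77% of their counts, against 3.78% to 9.49%. The part of depth and of this share in the ratio was not tested. Counts of HSPE1 carry 3 uncertainties of annotation. Of its transcript's 50-base windows 27.2% occur in other genes, pseudogenes among them, 14.2% of its exonic bases are covered by HSPD1 on the opposite strand, and the read-through gene HSPE1-MOB4 shares exons with it on the same strand. HSPE1-MOB4 had 0 counts in all 40 libraries. The rows of HSPD1 carry similar limits, with 24.8% of windows in other genes, while HSP90AA1, HSPA8, HSPB1, DNAJB1, DNAJA1 and HSPH1 share 17.5%, 15.4%, 11.4%, 2.57%, 1.501% and 0%. On the opposite strand TECR covers 5.75% of the DNAJB1 exons and WDR20 3.75% of those of HSP90AA1, and the sources used here do not say whether counting used the strand.

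HSPB1 also had an order of its own. It had 452, 460, 415 and 112.5 CPM in LOUCY, the last being library 4, and 514, 327, 335 and 242 CPM in HPB-ALL. LOUCY library 4 lay among the values of ALL-SIL, which were 100.1 to 129 CPM. TALL-1 was the lowest line at 35.6 ± 0.9995 CPM (SD, n = 4), and the LOUCY mean was 10.1 times as high. LOUCY and HPB-ALL were not called apart, HPB-ALL was above ALL-SIL by 1.69 on the log2 scale (SE 0.30, adjusted p = 2.57e-05 by edgeR), and DND-41 was above TALL-1 by 0.96 (SE 0.29, adjusted p = 0.00772 by edgeR).

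Set side by side across tables that were scaled apart, and so with no test, several members stood far apart between the libraries labelled HPB-ALL and untreated HPB-ALL. HSPA1A averaged 2.67 CPM with the QKI shRNA, 3.42 CPM with the NTC shRNA and 0.014 CPM in untreated HPB-ALL. HSPA1B averaged 7.21, 9.83 and 0.0478 CPM, HSPE1 1.61, 1.94 and 36.0 CPM and HSPD1 942, 979 and 275 CPM in the same 3 groups.

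Single libraries moved many members at once. LOUCY library 4 was the lowest of its line for 10 of 10 members, against 34.5% of all genes tested. TALL-1 library 4 and HPB-ALL library 4 were each lowest for 8 members (29.1% and 28.8% of all genes). ALL-SIL library 3 was highest for 8 (29.2%). Over all genes, library 4 of LOUCY, TALL-1 and HPB-ALL was also highest for 35.9%, 37.1% and 38.95%. ALL-SIL library 3 was lowest for 30.8%. In ALL-SIL library 3 HSP90AA1 stood at 1812 CPM, against 770 to 865 CPM in the other 3, and HSPA8 at 1686 CPM, against 720 to 939 CPM. HSP90AA1 and HSPH1 had the closest relation of any pair of members over the 24 libraries, with a correlation of 0.97, and the median over 45 pairs was 0.07, from -0.75 to 0.97. In the libraries labelled HPB-ALL the median over pairs was 0.67, from 0.18 to 0.92.

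Of 62 other genes of the chaperone system that were tested in the libraries labelled HPB-ALL, 4 were called higher and 9 lower with the QKI shRNA, against 12.8% of all genes called higher and 10.4% called lower. Chaperone genes were thus called about as often as other genes, and the genes named are a description of which they were. HSF1, the regulator of the heat shock response, rose by 0.19 on the log2 scale (SE 0.04, adjusted p = 0.00745 by edgeR), as the 1 called gene of 4 heat shock factors and regulators, whose median was 0.07. Of 9 other HSP70 genes HSPA4L, of the HSP110 branch with HSPH1, and HSPA14, which works at the ribosome, rose, with log2 fold changes of 0.21 and 0.23. HSPA13, an HSP70 of the endoplasmic reticulum, and HSPA1L, a relative of HSPA1A best known from the testis, fell, with -0.19 and -0.25. The median of this list was -0.0081. Of 16 other J-domain genes DNAJB2 rose, with a log2 fold change of 0.175, and DNAJB6, which keeps aggregating proteins soluble, and DNAJA4 fell, with -0.33 (adjusted p = 0.00144 by edgeR) and -0.22. The median of the J-domain list was -0.0048, against -0.0055 over all genes. CDC37, which brings kinases to HSP90, fell by 0.24 on the log2 scale (SE 0.04, adjusted p = 0.0025 by edgeR), and so did PPID, a cyclophilin bound to HSP90, by 0.23, as 2 called of 11 HSP90 family genes and cochaperones with a median of -0.11. STIP1, which links HSP70 to HSP90, fell by 0.14 as the 1 called of 12 HSP70 cochaperones and exchange factors, whose median was 0.05. CCT5 and CCT8, subunits of the cytosolic chaperonin TRiC, fell by 0.21 and 0.23 as 2 called of 8 subunits, whose median was -0.05. Of 2 tested genes for small heat shock proteins or HSP47, 0 were called, with a median of -0.10. In Jurkat 60 such genes were tested and 0 were called, with 0 at an unadjusted p under 0.05; with the block 0 were called and 2 were under 0.05.

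In the untreated lines 35 of the 62 tested genes had their highest mean in KARPAS-45, against 24.8% of all genes. They included 7 of 8 TRiC subunits, 7 of 11 HSP90 family genes and cochaperones, 7 of 12 HSP70 cochaperones, 8 of 15 J-domain genes, 5 of 10 HSP70 genes, 1 of 4 heat shock factors and regulators and 0 of 2 small heat shock proteins. These are ranks of means and were not tested. BAG5, for instance, was only 1.17 times as high in KARPAS-45 as in LOUCY, its lowest line. FKBP5, an HSP90-bound immunophilin, averaged 640 ± 17.3 CPM in KARPAS-45 and 5.53 ± 1.61 CPM in DND-41, a ratio of 116 (SD, n = 4 each). HSP90AB1, the HSP90 that is made without stress, was 9.38 times as high in KARPAS-45 as in HPB-ALL. TCP1 and CCT2 of TRiC were 4.69 and 4.64 times as high in the highest line, KARPAS-45, as in the lowest. For the exchange factor genes GRPEL2 and BAG2 it was 12.4 and 6.20 times, also with KARPAS-45 highest. DNAJA2, highest in KARPAS-45, spanned 8.79 times, and DNAJB5, highest in LOUCY, 5.18 times. HSPA4L averaged 135 ± 7.14 CPM in KARPAS-45 and had 0 counts in LOUCY, at least 2454-fold higher against a floor of 3 counts per library. HSPA12B had its highest mean, 6.42 CPM, in HPB-ALL, at least 122-fold above TALL-1, which had 0 counts, on the same floor. Of the heat shock factor genes HSF4 was highest in ALL-SIL and HSF2 in KARPAS-45. They spanned 9.92 and 3.51 times between the highest and the lowest line. The small heat shock protein HSPB6 and the collagen chaperone SERPINH1 spanned 11.1 and 7.08 times. Both were highest in LOUCY and lowest in KARPAS-45.

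The genes whose pattern was most like the mean of the 10 standardized members were found by correlation alone, where the average log2 CPM was at least 3. Over the 24 libraries of the lines, among 9274 genes, they were TUBA1A (0.94), TUBB4B (0.93), DNAJB6 (0.93), ACTR1A (0.92) and CBX1 (0.91). Over the 8 Jurkat libraries, among 9847 genes, they were RASGRP2, PI16, SLC2A1, DGLUCY and TPST2, each at 0.99. Libraries of a line, and Jurkat libraries of a number, share their source, so these values are descriptions. Over the lines, pairs of members had a median correlation of 0.07. The mean there is not a pattern that all 10 members share.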

How the data were processed

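The authors deposited raw read counts per gene, all whole numbers, for 40 libraries in 3 tables. The submitters' processing notes name Trimmomatic 0.39, STAR 2.7.11b and the build GRCh38. How reads were counted, by strand or not and on which annotation, was not given in the sources used here. Rows that name no gene, 13.0% to 15.1% of the totals in the table labelled HPB-ALL, were left out. The columns of the Jurkat controls are headed shNTC and were read as the labelled NTC siRNA. A pair of LOUCY columns carry the same number and were used as replicates without one.

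The test was edgeR's quasi-likelihood F test (version 4.0.16, R 4.3.3) after filterByExpr and TMM scaling, with Benjamini-Hochberg adjustment over all tested genes and a threshold of 0.05, each table on its own and the difference between knockdowns over 16 libraries. The SE is the log2 fold change over the square root of F. The scripts were tested on simulated data. The precision of low values is set by their counts, which are given. Positions come from GENCODE 29, promoters from RefSeq. Replicate pairs all differed by more than counting error (chi-square 12.7 to 348 per degree of freedom). Jurkat replicate numbers pair the libraries, since every same-number correlation was over 0.1 (0.733 to 0.877); those labelled HPB-ALL do not.

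The text names the 10 members, QKI, up to 4 called genes of each chaperone list per knockdown with the smallest p, up to 2 per list with the largest ratio between lines, and the 5 genes most like the members. The members and lists were chosen with earlier results of these data known. Alternatives were RLE and upper quartile factors, no filter, DESeq2 1.42.0, limma-voom (limma 3.58.1), the block, HSPA1A and HSPA1B summed, library sizes without histone and mitochondrial genes, and leaving out each replicate. Leaving out both Jurkat libraries numbered 2, the block in Jurkat alone and the block without each Jurkat pair were chosen after seeing the data.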

Additional observations from a re-analysis of the deposited data

Results flagged for a closer look

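Of 100 groups of 4 libraries, 1 for each member and group, 18 held a library whose gap to the nearest other passed Dixon's 95% critical value as a share of the group's range. Chance flags about 1 in 20 groups, and members that move together in a library are flagged together. In Jurkat NTC siRNA library 2, HSPH1 had 104 CPM and HSP90AA1 626 CPM, both the lowest of their group. In the libraries labelled HPB-ALL, HSPA1A was lowest in QKI shRNA library 4 at 1.97 CPM and DNAJA1 highest in NTC shRNA library 4 at 88.6 CPM. TALL-1 library 4 was far below the other 3 for HSPH1 (185.5 CPM), DNAJA1 (130.6 CPM), HSP90AA1 (755 CPM) and HSPD1 (294 CPM). ALL-SIL library 3 was far above the others for HSPA1B (15.5 CPM), HSPH1 (319 CPM), DNAJA1 (243 CPM) and HSP90AA1 (1812 CPM). LOUCY library 4 was far below for HSPE1 (14.6 CPM) and HSPB1 (112.5 CPM), and HPB-ALL library 4 for HSPA8 (636 CPM). DNAJA1 was lowest in KARPAS-45 library 3 at 382 CPM and HSPA1B highest in DND-41 library 4 at 11.8 CPM. HSPA1A in KARPAS-45 was highest in library 2 at 0.0143 CPM, which is 1 count against 0 in the other 3. The causes were not tested.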

How the results depend on the processing

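In the libraries labelled HPB-ALL, 5 members were called; DESeq2 called 7, upper quartile factors 8, no filter 4, RLE factors 5 and limma-voom 5, and leaving out 1 library gave 3 to 6, with 3 without NTC library 4 or QKI shRNA library 1. With the replicate block 2 members were called, DNAJA1 and HSPA1B, but the numbers do not pair these libraries. The HSPD1 change ran from -0.11 to 0.011 over single libraries left out. In Jurkat 0 members were called under every alternative. Signs there turned for HSPA1B with the block (-0.038), no filter (-0.011), the copies summed (-0.0025), histone and mitochondrial genes left out of library sizes (-0.0036), and the block without both libraries numbered 2 (-0.042). They turned for HSPB1 with upper quartile factors (-0.0040), no filter (-0.0022) and the block without number 2 (-0.071), for DNAJB1 in that last fit (-0.015) and for HSPA1A with limma-voom (0.12). Leaving out 1 Jurkat library gave ranges of -0.49 to 0.42 for HSPA1A, -0.44 to 0.38 for HSPA1B, -0.12 to 0.37 for HSPA8, -0.14 to 0.29 for HSPH1, -0.19 to 0.33 for DNAJA1, -0.25 to 0.26 for DNAJB1, -0.037 to 0.36 for HSP90AA1, 0.012 to 0.17 for HSPD1, -0.51 to -0.014 for HSPE1 and -0.12 to 0.091 for HSPB1. The difference between the knockdowns was called for 0 members, for 1 with the replicate block, for 2 with the block in Jurkat alone and for 1 to 2 with the block and a Jurkat pair left out, where HSPE1 turned to 0.016 without pair 2. Over single libraries left out without the block it ran from -0.82 to 0.12 for HSPA1A, -0.72 to -0.22 for DNAJA1, -0.35 to 0.13 for DNAJB1 and -0.26 to 0.22 for HSPE1. Contrasts between lines called for members numbered 94, and 89 to 103 without 1 library. Those of DNAJB1 numbered 10, and 5 with upper quartile factors. The causes were not tested.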
